A study of Homo sapiens with 24 samples.

Results

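The small nucleolar RNA host genes described here are 10 long noncoding RNA genes: GAS5, SNHG1, SNHG3, SNHG5, SNHG6, SNHG7, SNHG8, SNHG12, SNHG15 and SNHG16. They were taken by symbol from a count table of 34618 genes. The members were chosen by the difference of their measured levels between the knockdown lines, so the levels of one line against another are given as a description with no test. RNA was sequenced from HepG2, a human hepatocellular carcinoma line, in 24 libraries. All 3 lines carried a stable lentiviral hairpin and had been selected with puromycin at 1 ug/mL. The control line (shCtrl) had a hairpin with no stated target, the shSETD2 line one against the histone H3 lysine 36 methyltransferase SETD2, and the shMETTL14 line one against METTL14, a subunit of the N6-methyladenosine writer. Each line was left untreated (0 h) or kept in actinomycin D at 5 ug/mL, which blocks transcription, for 1, 3 or 6 h, with 2 libraries per line and time. Each target is represented by 1 hairpin line, so an effect of the target and of that single line cannot be told apart.

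Small nucleolar RNAs guide chemical modification of ribosomal RNA, and most human ones are cut from the introns of a host transcript after splicing. In this family the spliced exons code for no known conserved protein. The exons counted here sum all annotated isoforms and cover 12.4% (SNHG5) to 96.6% (SNHG1) of the gene. Spliced and unspliced RNA therefore cannot be told apart in these counts. Many of these hosts start with a 5′ terminal oligopyrimidine tract (TOP), as ribosomal protein genes do, and several are known targets of nonsense-mediated decay, which removes the spliced RNA when it is translated. GAS5, whose introns carry box C/D small nucleolar RNAs, is known for building up when growth or translation stops. SNHG1, SNHG5, SNHG6 and SNHG16 also host box C/D RNAs, while SNHG3, SNHG7, SNHG8 and SNHG15 host box H/ACA RNAs and SNHG12 hosts both kinds.

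The gene starts are shown because a TOP tract lies at the very 5′ end of the transcript. Windows of 300 bases around the start as RefSeq lists it (build GRCh38.p14) were at hand for 8 of the 10 genes. The stretch from 20 bases before the start to 40 bases from it reads as follows, 5′ to 3′ on the gene's strand. Capitals mark the first match to a C followed by at least 4 pyrimidines (C or T) whose first C lies within 10 bases of the listed start on that strand; nothing outside that range was marked.
GAS5 (chr1:173869006-173869065, minus strand): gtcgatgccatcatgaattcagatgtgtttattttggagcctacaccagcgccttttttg
SNHG1 (chr11:62855846-62855905, minus strand): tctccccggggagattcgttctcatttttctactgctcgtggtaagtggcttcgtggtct
SNHG3 (chr1:28505923-28505982, plus strand): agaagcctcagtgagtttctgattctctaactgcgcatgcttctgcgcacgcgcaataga
SNHG5 (chr6:85678694-85678753, minus strand): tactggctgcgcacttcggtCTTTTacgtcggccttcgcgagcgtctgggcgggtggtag
SNHG7 (chr9:136728145-136728204, minus strand): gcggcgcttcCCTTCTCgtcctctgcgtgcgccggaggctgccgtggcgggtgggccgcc
SNHG8 (chr4:118278742-118278801, plus strand): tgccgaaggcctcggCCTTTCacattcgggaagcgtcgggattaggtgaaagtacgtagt
SNHG12 (chr1:28581834-28581893, minus strand): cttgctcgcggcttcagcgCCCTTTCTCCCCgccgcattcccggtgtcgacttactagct
SNHG16 (chr17:76557744-76557803, plus strand): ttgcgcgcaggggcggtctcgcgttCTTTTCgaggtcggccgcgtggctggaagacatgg

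Such a match was found for 5 of the 8 genes, against 33.5% of all 35116 windows and 83.3% of 78 windows of cytosolic ribosomal protein genes. Among the members with a window, only SNHG5 and SNHG12 had a C on the listed start base itself followed by at least 4 pyrimidines. This holds for 4.07% of all windows. SNHG12 had the longest run, 12 bases. In SNHG8 the run began 5 bases before the listed start and in SNHG16 on base 6 from it. In SNHG7 the marked match starts at the edge of the searched range, and the pyrimidine run it belongs to is 11 bases long and begins further upstream. A later run of SNHG7, unmarked because only the first match was marked, covers the listed start base, a C with fewer than 4 pyrimidines after it. For GAS5, SNHG1 and SNHG3 the result says only that no match starts within 10 bases of the listed start; the longer printed stretches hold such letters further away, and the listed start need not be the one used in HepG2.

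The libraries held between 18.3 and 31.4 M counts, so that 3 counts equal 0.0936 to 0.196 CPM (counts scaled to a fixed library total, adjusted by TMM factors). SETD2 in the shSETD2 line and METTL14 in the shMETTL14 line were below shCtrl in both libraries at all 4 times (86.1 against 130 CPM, and 14.5 against 29.7 CPM, as means at 0 h). All 9 hepatocyte markers were detected in all 24 libraries, and their summed level was 52000 to 99800 CPM in shCtrl, 100000 to 185000 in shSETD2 and 59700 to 122000 in shMETTL14. Of 7 fibroblast markers COL1A1 and PDGFRB reached 19.1 and 48.9 CPM, DCN was at 0 in all libraries and the sums were 13.2 to 22.2, 18.5 to 40.6 and 28.5 to 59.8 CPM in the 3 lines. Of 7 blood markers PTPRC and CD3E were at 0 in all libraries, and the sums lay between 2.49 and 6.30 CPM. The part of these marker levels in the results below was not tested. The share of mitochondrial transcripts moved with line and time: at 0 h it was 6.89% to 7% in shCtrl, 8.67% to 8.9% in shSETD2 and 6.99% to 7.09% in shMETTL14, and at 6 h 4.56% to 4.64%, 4.87% to 5.41% and 5.16% to 5.35%. Its part in the results was not tested. The 2 shSETD2 libraries at 6 h differed most from each other (chi-square per degree of freedom 19.5 over genes, against 1.37 to 5.63 in the other 11 groups). The labels say that ERCC spike-in RNA was added, and the count table holds 0 ERCC entries, so every value is relative to the other RNA of its library and a rise under actinomycin D is a rise relative to the rest. Fewer RNA molecules per cell and fewer cells cannot be told apart in such bulk samples.

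Of the 10 genes 9 were counted in every library and 1 had almost no counts. SNHG15 (ENSG00000232956; chromosome 7, 45022622 to 45026560, GRCh37) had at most 1 count, in 4 of 24 libraries, and did not pass the filter on low counts. Whether the cells lack this RNA or its reads were not assigned to this row cannot be told apart here. On the scale that allows genes to be compared, deposited RPKM (reads per kilobase of exon, scaled to the total counts of the library), SNHG8 and SNHG5 were the highest in untreated shCtrl cells, at 48.0 ± 2.44 and 45.1 ± 4.72 (SD, n = 2), and their libraries overlapped. Then followed SNHG16 (39.1 ± 0.821 RPKM), SNHG6 (30.9 ± 0.799), SNHG1 (29.3 ± 0.255), GAS5 (18.9 ± 0.0225), SNHG3 (16 ± 0.273), SNHG7 (9.18 ± 0.235) and SNHG12 (6.24 ± 0.265), each with both libraries below both of the gene before it. The exon lengths behind RPKM sum all annotated isoforms, from 923 bases in SNHG8 to 5362 in SNHG16, and cover 96.6% of the SNHG1 gene but 12.4% of SNHG5. The order therefore holds for these annotated lengths only.

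**Figure D1:**
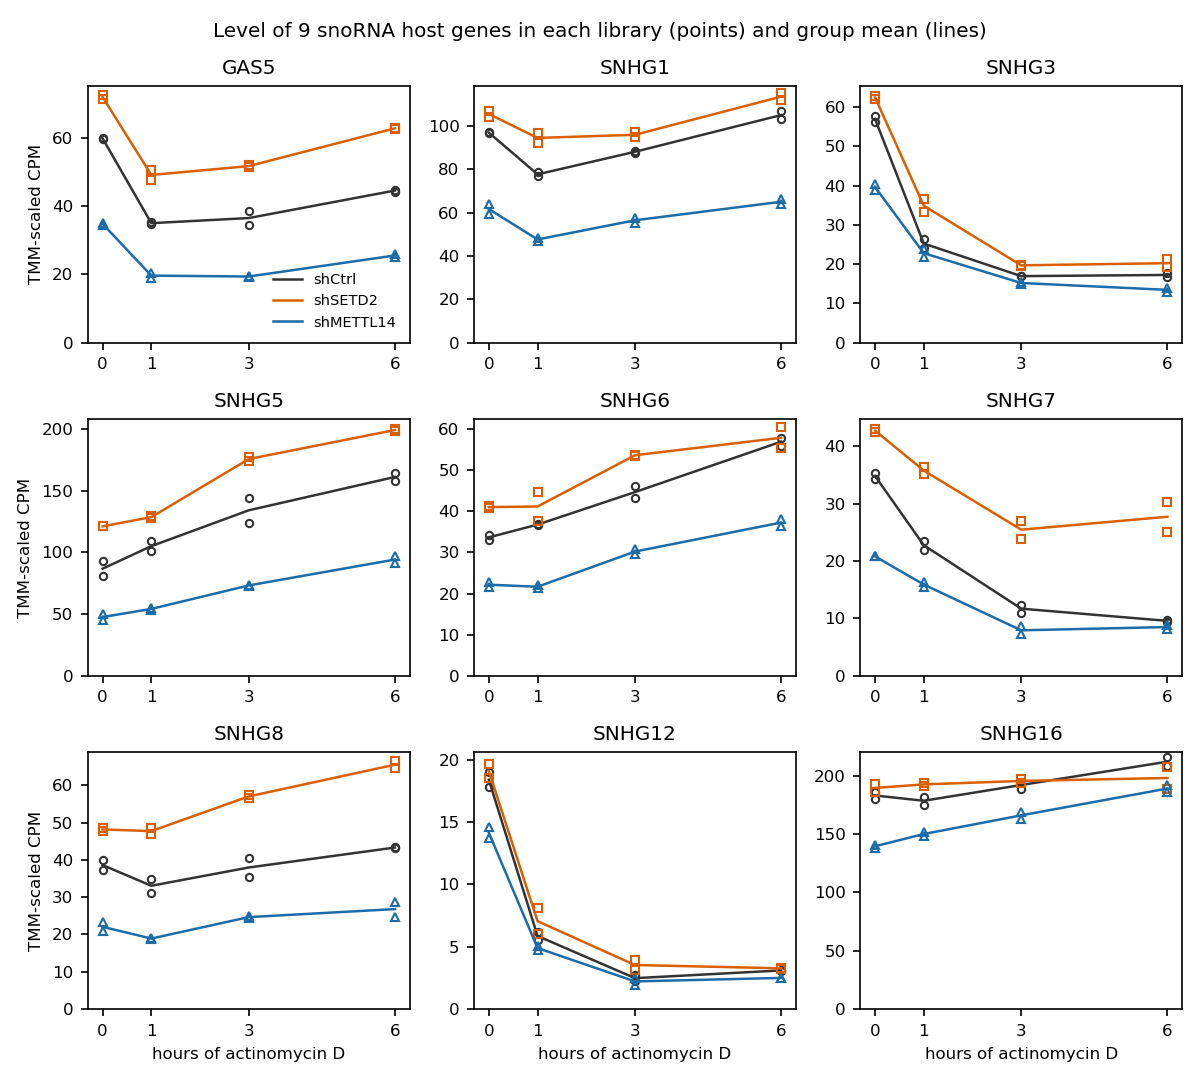
TMM-scaled CPM (vertical axis, from 0) against hours of actinomycin D (horizontal axis) for the 9 expressed host genes; points are single libraries, lines join the means of 2 libraries, black circles are shCtrl, orange squares shSETD2 and blue triangles shMETTL14. The shMETTL14 line lies lowest in each panel at 0 h, and SNHG3, SNHG7 and SNHG12 fall while SNHG5 and SNHG6 rise.

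In untreated shMETTL14 cells all 9 expressed hosts stood below shCtrl, with no overlap between the libraries of the 2 lines. Over all 14887 genes tested, 40% showed both shMETTL14 libraries below both shCtrl libraries; since the members were chosen on such differences, their count is a description. GAS5 (ENSG00000234741; chromosome 1, 173833038 to 173838020, GRCh37) measured 34.4 and 35.1 CPM in shMETTL14 against 59.8 and 59.7 CPM in shCtrl, or 58.2% of control (log2 fold change -0.78, SE 0.0592). The lowest ratio was that of SNHG5 (ENSG00000203875; chromosome 6, 86370710 to 86388451), at 49.8 and 45.4 CPM against 80.5 and 93.0 CPM, or 54.8% (log2 fold change -0.87, SE 0.0706). SNHG8 (ENSG00000269893; chromosome 4, 119199864 to 119200978) had 23.3 and 20.8 CPM against 37.3 and 39.9 CPM, or 57.0%. These 3 genes kept ratios between 51.5% and 64.9% at the 3 later times too.

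SNHG7, SNHG1 and SNHG6 stood at 59.8%, 63.6% and 65.9% of control in untreated shMETTL14 cells. SNHG3 stood at 69.6%, SNHG16 at 76.2% and SNHG12 at 77.0%, the smallest reductions of the family. SNHG16 (ENSG00000163597; chromosome 17, 74553848 to 74561430), the most highly counted member, had 138 and 141 CPM there against 186 and 180 CPM in shCtrl. The direction at 0 h was lower for all 9 genes under each scaling tried (TMM, relative log expression, library size alone, another filter on low counts, and log2 RPKM).

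The shSETD2 line lay on the other side of control for most of the family, by smaller ratios. Before the drug 7 of the 9 genes had both shSETD2 libraries above both shCtrl libraries, a pattern that 39.3% of all genes tested showed, and the libraries of SNHG12 and SNHG16 overlapped with shCtrl. SNHG5 was the highest relative to control, at 121 and 121 CPM, or 139% (log2 fold change 0.48, SE 0.0681). GAS5 had 71.3 and 72.4 CPM, or 120% (log2 fold change 0.27, SE 0.0573), and SNHG8 had 47.7 and 48.6 CPM, or 125%. SNHG7 and SNHG6 stood at 123% and 122%.

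For SNHG3 (110%), SNHG1 (109%), SNHG12 (104%) and SNHG16 (103%) the sign at 0 h depended on the scaling, since with library size alone they stood at 98.5%, 97.7%, 93.4% and 92.8% of shCtrl. That scaling moved the median log2 difference of all genes from 0.02 to -0.14, and the share of higher calls over all genes from 53.3% to 28.3%. GAS5, SNHG5, SNHG6, SNHG7 and SNHG8 stayed above shCtrl under it, at 108%, 125%, 109%, 110% and 112%. Between the knockdown lines the ratio at 0 h was largest for SNHG5, which was 2.54-fold higher in shSETD2 than in shMETTL14 (log2 difference 1.35, SE 0.0703). GAS5 was 2.07-fold, SNHG8 2.18-fold and SNHG7 2.05-fold higher there, and SNHG12 and SNHG16 differed least (1.35-fold and 1.36-fold).

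**Figure D2:**
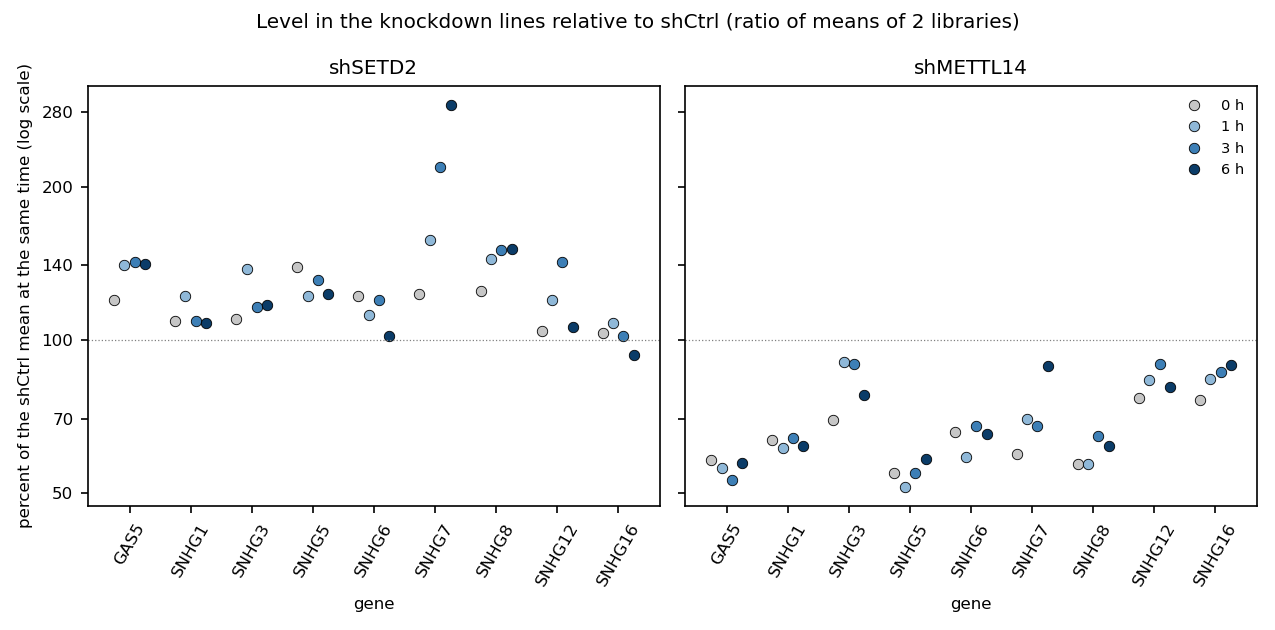
Mean CPM in the shSETD2 (left) and shMETTL14 (right) line as a percent of the shCtrl mean at the same time (vertical axis, log scale), for 9 host genes (horizontal axis); each point is the ratio of 2 means of 2 libraries, shaded by hours of actinomycin D. In shSETD2 cells SNHG7 climbs from 123% at 0 h to 289% at 6 h, and in shMETTL14 cells all points lie below 100%; SNHG1, SNHG3, SNHG12 and SNHG16 at 0 h in shSETD2 fall below 100% when scaled by library size alone, as do SNHG16 at 1 and 3 h and SNHG6 and SNHG12 at 6 h.

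The genes that share features with the family were also lower in untreated shMETTL14 cells. Calls here are edgeR quasi-likelihood tests with an adjusted p under 0.05 over all genes tested, of which 25.1% were called lower. Of 37 protein-coding genes that host small nucleolar RNAs in their introns 34 were lower and 0 higher (median log2 fold change -0.52), and of 79 cytosolic ribosomal protein genes 74 were lower and 0 higher (median -0.51). Several genes stand on both lists, since many ribosomal protein genes are hosts. Of 16 other TOP genes 14 were lower and 1 higher (median -0.48), and of 17 proteins of box C/D and box H/ACA particles 15 were lower and 0 higher (median -0.39). The median over all genes tested was -0.01. Among 8 noncoding hosts outside the family 4 were lower and 2 higher. ZFAS1, a noncoding host of box C/D RNAs, had means of 77.6 CPM in shMETTL14 and 140 CPM in shCtrl at 0 h, while SNHG14 had 106 and 91.8 CPM. Of 20 nonsense-mediated decay factors 11 were lower and 2 higher, and of 15 other transcripts known as its targets 10 were lower and 3 higher. The medians of these 2 lists were -0.24 and -0.35.

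In untreated shSETD2 cells 21.6% of all genes tested were called higher than in shCtrl. Of the 79 ribosomal protein genes 28 were higher and 1 lower (median 0.14), which became 3 higher and 5 lower (median -0.01) with library size alone. The protein-coding hosts were split, with 10 higher and 6 lower (median 0.02), against 0 and 18 with library size alone. Of the 8 other noncoding hosts 2 were higher, SNHG14 and SNHG10, and 0 lower, against 2 and 3 with library size alone.

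Once transcription was blocked, the members separated into genes that were lost, genes that held their level and genes that gained relative to the rest of the RNA. After 1 h, 6 of 9 members were lower and 1 higher in shCtrl, against 15.9% of all genes tested lower and 13.8% higher. In shSETD2 cells 5 were lower and 0 higher (16.1% and 12.6% of all genes), and in shMETTL14 cells 6 were lower and 1 higher (16% and 23.1%). After 6 h, 4 members were lower and 4 higher in shCtrl (33.2% and 36.9% of all genes), 4 and 3 in shSETD2 (35.5% and 33.6%) and 4 and 4 in shMETTL14 (34.6% and 37.6%). With library size alone the 6 h split was 7 lower and 2 higher in shCtrl, 6 and 2 in shSETD2, and 5 and 2 in shMETTL14, and the median change of all genes went from 0.07, 0.00 and 0.06 to -0.27, -0.29 and -0.38. The share of higher calls over all genes went with it from 52.6%, 48.6% and 52.1% to 33%, 32.3% and 28.4% at 6 h, and from 46.3%, 43.9% and 59% to 26.2%, 30.9% and 28.2% at 1 h.

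**Figure D3:**
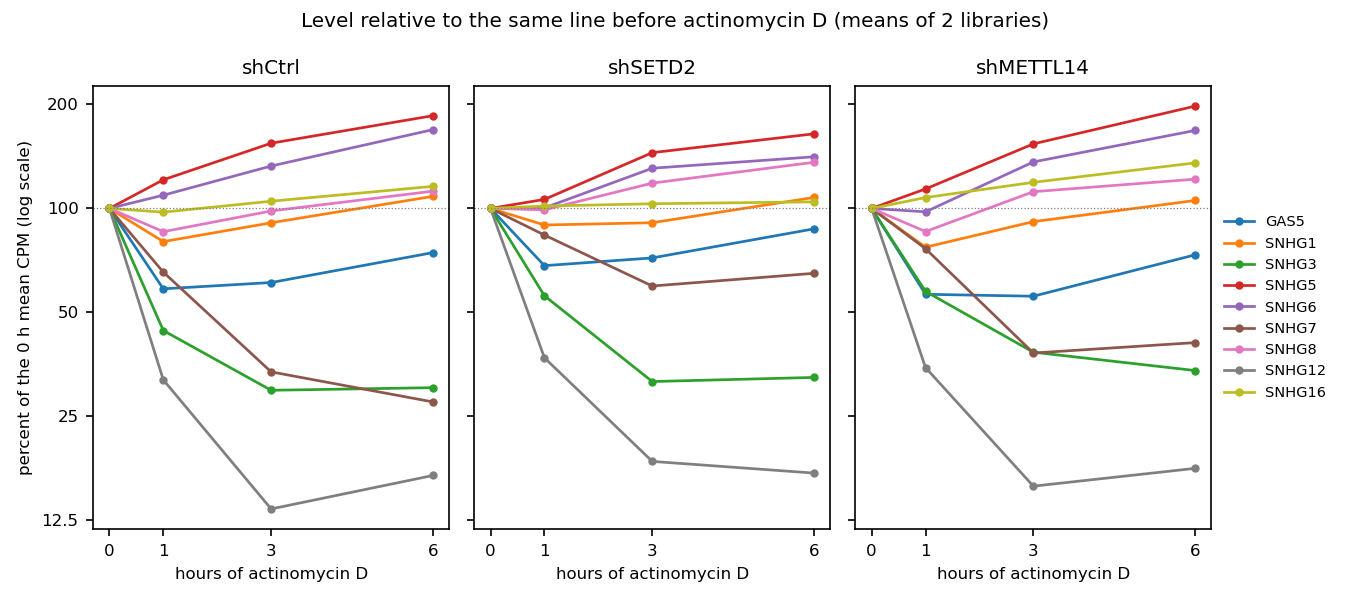
Mean CPM as a percent of the 0 h mean of the same line (vertical axis, log scale) against hours of actinomycin D (horizontal axis), one panel per line and one colour per host gene; each point is the mean of 2 libraries. SNHG12 ends at 16.8% to 17.7% of its 0 h level in the 3 lines and SNHG5 at 164% to 198%, while SNHG1, SNHG8 and SNHG16 end above 100% here but, except for SNHG8 in shSETD2, below it when scaled by library size alone.

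SNHG12, SNHG3 and SNHG7 had lost most by 3 and 6 h in each line, although in the first hour GAS5 fell further than SNHG7. SNHG12 (ENSG00000197989; chromosome 1, 28905050 to 28909495) measured 19 and 17.8 CPM in shCtrl at 0 h, 6.17 and 5.56 at 1 h, 2.70 and 2.26 at 3 h and 3.06 and 3.14 at 6 h. It had thus dropped to 31.9% within the first hour and to 13.5% by 3 h, and the 3 h and 6 h libraries lay within 1 CPM of each other. Its log2 change at 6 h was -2.57 (SE 0.141, edgeR adjusted p = 1.56e-13) in shCtrl, -2.55 in shSETD2 and -2.50 in shMETTL14. The 3 lines left 16.8%, 17.1% and 17.7% of the 0 h level.

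SNHG3 (ENSG00000242125; chromosome 1, 28832492 to 28837404), host of box H/ACA RNAs, followed the same course at a higher level. In shCtrl it had 57.8 and 56.2 CPM at 0 h, 24.2 and 26.3 at 1 h, 16.9 and 17 at 3 h, and 17.7 and 16.8 at 6 h. The 1 h libraries lay far below those at 0 h and the 3 h and 6 h libraries overlapped. At 6 h 30.3% was left in shCtrl (log2 change -1.72, SE 0.0762, edgeR adjusted p = 3.55e-15), 32.3% in shSETD2 and 33.9% in shMETTL14. SNHG3 lies wholly inside the gene RCC1 on the same strand, so reads of the 2 genes may have been split or dropped by the counting; RCC1 itself had means of 67.8 to 125 CPM over the 12 groups and 111 and 123 CPM at 0 and 6 h in shCtrl. Across the 12 group means the log2 levels of SNHG3 and SNHG12 had a Pearson correlation of 0.981, a description over groups that share lines and times.

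SNHG7 (ENSG00000233016; chromosome 9, 139615818 to 139622636), which hosts box H/ACA RNAs, fell less than SNHG12 and SNHG3 in the first hour in each line. At 6 h in shCtrl 27.5% of it was left, against 30.3% of SNHG3, and its course differed between the lines. In shCtrl it measured 34.2 and 35.4 CPM at 0 h, 23.5 and 22 at 1 h, 12.4 and 11 at 3 h, and 9.74 and 9.41 at 6 h. In shSETD2 the values were 42.5 and 42.9 at 0 h, 36.4 and 35.1 at 1 h, 27.0 and 23.9 at 3 h, and 30.3 and 25.1 at 6 h. In shMETTL14 they were 20.8 and 20.8, 16.4 and 15.4, 7.24 and 8.62, and 8.19 and 8.81 CPM at the same times. By 6 h the control line had kept 27.5% of its 0 h level, shMETTL14 40.8% and shSETD2 64.8%, and the shSETD2 libraries were the only ones of the 3 lines still above 20 CPM. The slope of the log2 level over 0 to 6 h was -0.304 per h in shCtrl (SE 0.0161), -0.103 in shSETD2 (SE 0.0137) and -0.221 in shMETTL14 (SE 0.0169).

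Those slopes were compared between lines. The 0 h libraries also gave the levels that chose the members, and earlier results of these data were known at that choice. The slope tests are therefore not independent of it, with or without the 0 h libraries. SNHG7 fell more slowly in shSETD2 than in shCtrl by 0.200 log2 per h (SE 0.0213, 95% interval 0.154 to 0.246, edgeR adjusted p = 3.07e-06). From 1 to 6 h, without any 0 h library, the difference was 0.173 (adjusted p = 0.000947), and no single library or scaling ended the call. Without replicate 1 or replicate 2 of shSETD2 at 6 h, the pair that disagreed most, it was 0.177 or 0.221. Against shMETTL14 the shSETD2 slope was higher by 0.118 (SE 0.0219, adjusted p = 0.00131), or by 0.1 from 1 to 6 h (adjusted p = 0.0403). In shMETTL14 SNHG7 fell more slowly than in shCtrl by 0.083 (SE 0.0240, adjusted p = 0.0457), but with the 1 to 6 h slope (0.073, adjusted p = 0.272) and with library size alone (0.071, adjusted p = 0.0845) the call was lost. As a level, SNHG7 in shSETD2 stood at 123%, 157%, 218% and 289% of shCtrl at 0, 1, 3 and 6 h. FAM69B, which overlaps 2685 bases of SNHG7 on the other strand, never exceeded a group mean of 3.22 CPM and was lower in shSETD2 (1.23 CPM at 6 h) than in shCtrl (3.22 CPM). The part of FAM69B reads in the SNHG7 counts was not tested.

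SNHG16, a host of box C/D RNAs, was the other gene called for a slope difference over 0 to 6 h. It measured 138 and 141 CPM in shMETTL14 at 0 h and 192 and 186 CPM at 6 h, against 186 and 193 CPM and then 189 and 207 CPM in shSETD2. The pairs at 0 and 6 h overlapped in shSETD2 and did not in shMETTL14. The slope in shSETD2 was lower than in shMETTL14 by 0.061 log2 per h (-0.061, SE 0.0107, edgeR adjusted p = 0.000685), and by 0.059 from 1 to 6 h (-0.059, adjusted p = 0.0125). Over 0 to 3 h the call was lost (-0.067, adjusted p = 0.138). Without replicate 1 or replicate 2 of shSETD2 at 6 h the difference was -0.049 or -0.073. Against shCtrl neither line passed with TMM factors, with differences of -0.029 (95% interval -0.052 to -0.006, adjusted p = 0.0946) for shSETD2 and 0.032 (0.009 to 0.055, adjusted p = 0.0886) for shMETTL14. The latter was called with relative log expression factors (0.038, adjusted p = 0.0392) and with the stricter filter (0.054, adjusted p = 0.00147).

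In all, 1 of 9 members was called for a slope difference between shSETD2 and shCtrl, where 7.94% of all genes tested were called. Between shMETTL14 and shCtrl it was 1 of 9 (5.21% of all genes), and between the knockdown lines 2 of 9 (9.61%). These 3 comparisons share libraries. The other members had differences of -0.035 to 0.038 log2 per h between shSETD2 and shCtrl, -0.003 to 0.032 between shMETTL14 and shCtrl, and -0.046 to 0.031 between the knockdown lines. GAS5 and SNHG8 in shSETD2 did not pass against shCtrl, with 0.028 (95% interval -0.001 to 0.057, adjusted p = 0.209) and 0.038 (0.002 to 0.074, adjusted p = 0.17). Both were called with relative log expression factors (0.047 and 0.058, adjusted p = 0.0383 and 0.0473), and neither was from 1 to 6 h (0.001 and 0.013). Between the knockdown lines GAS5 had a difference of 0.031 (adjusted p = 0.173), which was called over 0 to 3 h (0.112, adjusted p = 0.0396) and with library size alone (0.053, adjusted p = 0.0185). SNHG12 had the widest interval in each comparison. It was -0.084 to 0.080 for shSETD2 minus shCtrl, -0.078 to 0.092 for shMETTL14 minus shCtrl and -0.095 to 0.075 for shSETD2 minus shMETTL14. For SNHG12 a difference of the size measured for GAS5 therefore cannot be told from 0.

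**Figure D4:**
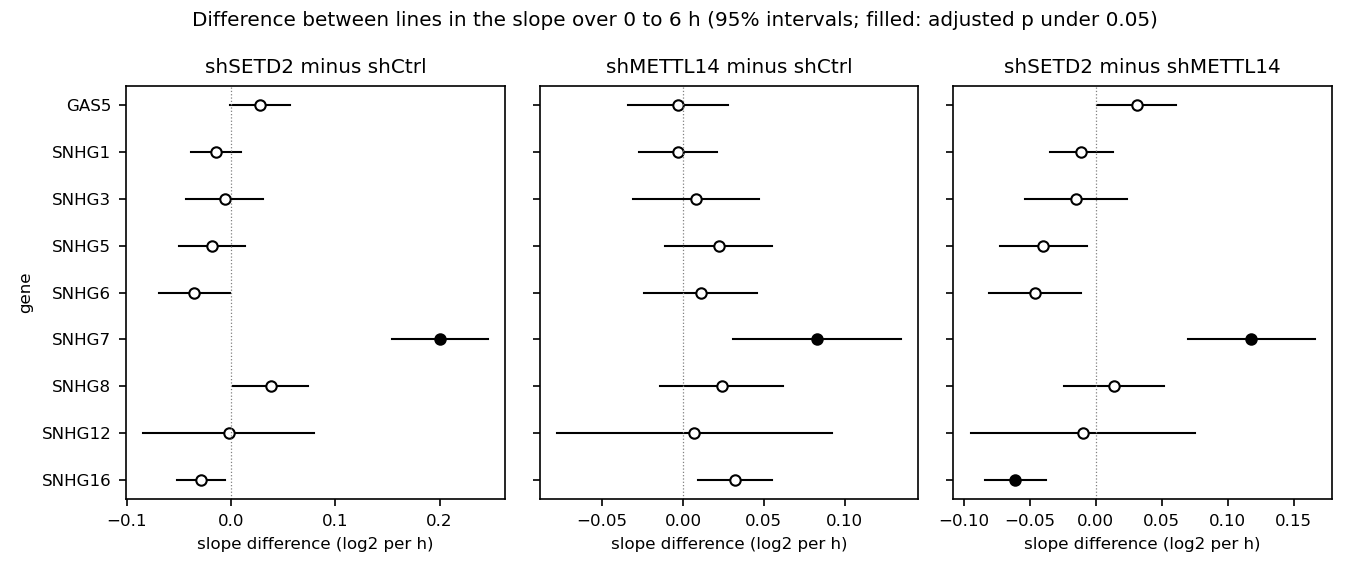
Difference between 2 lines in the least-squares slope of the log2 level over 0 to 6 h (horizontal axis, log2 per h) for 9 host genes (vertical axis), with 95% intervals; filled points have an edgeR adjusted p under 0.05 over all genes tested. SNHG7 lies right of 0 in the 3 panels (0.200, 0.083 and 0.118), the middle one lost with library size alone, and SNHG16 lies left of 0 between the knockdown lines (-0.061).

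GAS5 dropped within the first hour in each line, and how its level moved after that depended on the scaling. In shCtrl it measured 59.8 and 59.7 CPM at 0 h, 35.3 and 34.6 at 1 h, 38.4 and 34.5 at 3 h, and 44.2 and 44.8 at 6 h. The shSETD2 libraries had 71.3 and 72.4, 47.6 and 50.5, 51.4 and 51.9, and 62.9 and 62.5 CPM at those times, and the shMETTL14 libraries 34.4 and 35.1, 18.8 and 20.4, 19.1 and 19.6, and 25.8 and 25.2. On this scale both 6 h libraries of each line lay above both 1 h libraries and below both 0 h libraries, whereas in RPKM the 1 h and 6 h libraries of shMETTL14 overlapped. The log2 change in the first hour was -0.77 in shCtrl (SE 0.0596, edgeR adjusted p = 1.01e-09), -0.55 in shSETD2 (SE 0.0578) and -0.83 in shMETTL14 (SE 0.0639), or 58.5%, 68.2% and 56.4% left.

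From 1 to 6 h the GAS5 slope was 0.072 log2 per h in shCtrl (SE 0.0123, edgeR adjusted p = 2.35e-05), 0.073 in shSETD2 (adjusted p = 1.16e-05) and 0.081 in shMETTL14 (adjusted p = 1.86e-05). With library size alone, an alternative added after the data were seen, these slopes were 0.016, 0.023 and 0.018 (adjusted p = 0.276, 0.112 and 0.271), so the call of a rise after 1 h was lost in all 3 lines. GAS5 ended at 74.5%, 87.2% and 73.4% of its 0 h level with TMM factors and at 58.5%, 71.4% and 54.1% in RPKM. SNHG1 and SNHG8 also had a lower mean level at 1 h than at 0 and 6 h with TMM factors in the 3 lines, as the plot of percent left shows. For SNHG8 in shSETD2 the means at 0 and 1 h were 48.1 and 47.7 CPM, and the libraries overlapped. The log2 change of GAS5 at 6 h in shSETD2 was -0.20 (SE 0.0588, edgeR adjusted p = 0.00505), or -0.487 with library size alone. It lost its call with relative log expression factors (-0.107, adjusted p = 0.109) and without either shCtrl or either shMETTL14 0 h library. Over all fits that left out 1 library it lay between -0.209 and -0.121. GAS5 shares 801 bases with ZBTB37 on the other strand, a gene that fell from 35.9 to 15.1 CPM over 6 h in shCtrl and had 34.5 and 33.1 CPM at 0 h in shSETD2 and shMETTL14. Its part in the GAS5 counts was not tested.

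SNHG5 and SNHG6, both hosts of box C/D RNAs, gained relative to the rest. SNHG5 went from 80.5 and 93.0 CPM at 0 h to 109 and 101 at 1 h, 144 and 124 at 3 h, and 158 and 164 at 6 h in shCtrl. It reached 186% of its 0 h level there (log2 change 0.89, SE 0.0685, edgeR adjusted p = 5.84e-11), 164% in shSETD2 and 198% in shMETTL14. SNHG6 (ENSG00000245910; chromosome 8, 67833919 to 67838633) went from 33.1 and 34.2 CPM to 55.9 and 57.9 CPM in shCtrl, or 169% (log2 change 0.76, SE 0.0723, adjusted p = 2.34e-09). It reached 141% in shSETD2 and 168% in shMETTL14. With library size alone the 6 h changes were smaller, at 0.541, 0.427 and 0.543 for SNHG5 and 0.408, 0.205 and 0.308 for SNHG6 in shCtrl, shSETD2 and shMETTL14. Both genes kept a positive 6 h change under every setting run. Their log2 levels over the 12 group means had a Pearson correlation of 0.987.

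SNHG1, SNHG8 and SNHG16 ended at 105% to 136% of their starting level, and the sign of their change depended on the scaling. SNHG1 (ENSG00000255717; chromosome 11, 62619460 to 62623386), host of a row of box C/D RNAs, dropped in the first hour from 96.5 and 97.3 to 78.6 and 76.7 CPM in shCtrl (log2 change -0.32, SE 0.0499, edgeR adjusted p = 3.36e-05) and was at 107 and 103 CPM by 6 h. The first-hour change was -0.16 in shSETD2 (SE 0.0494, adjusted p = 0.0171) and -0.37 in shMETTL14 (SE 0.0518, adjusted p = 6.66e-06). At 6 h SNHG1 had a log2 change of 0.12 in shCtrl (adjusted p = 0.0388), but -0.231 with library size alone.

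SNHG8, whose intron carries a box H/ACA RNA, went from 37.3 and 39.9 to 43.2 and 43.4 CPM in shCtrl (log2 change 0.16, SE 0.0771, edgeR adjusted p = 0.0633; -0.186 with library size alone). In shSETD2 it went from 47.7 and 48.6 to 66.4 and 64.6 CPM (log2 change 0.45, SE 0.0745, adjusted p = 1.27e-05), which stayed above 0 but lost its call with library size alone (0.156, adjusted p = 0.0791). SNHG16 had 6 h changes of 0.21 in shCtrl (adjusted p = 0.000502), 0.06 in shSETD2 (adjusted p = 0.246) and 0.44 in shMETTL14 (adjusted p = 2.99e-08), against -0.138, -0.226 and -0.003 with library size alone. Of the 4 expressed hosts of box H/ACA RNAs, SNHG3, SNHG7 and SNHG12 were the 3 deepest losses of the family in shCtrl and SNHG8 was not among them. SNHG12 hosts box C/D RNAs too, and a link between the loss and the hosted kind was not tested.

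At 3 h 7 of 9 members were called in either direction in shCtrl (61.1% of all genes tested), 8 in shSETD2 (60.2%) and 8 in shMETTL14 (65.3%). A slope over 0 to 6 h was called for 9 of 9 in shCtrl (71.1%), 7 in shSETD2 (70.4%) and 9 in shMETTL14 (73.1%). Most genes tested were called in each of these comparisons, so the counts do not set the members apart.

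The deposited half-lives, 1 value per gene and line without replicates, cover 6 of the 10 genes among 7772. In the authors' deposited table the shCtrl half-lives are 2.23 h for SNHG12, 2.66 h for SNHG7, 3.14 h for SNHG3, 9.73 h for GAS5, 30.5 h for SNHG1 and 33.2 h for SNHG16, against a median of 6.02 h over the table. SNHG12 is thus longer than 8.09% of the listed genes and SNHG16 than 92.3%, by the authors' deposited table. The time course ends at 6 h, so values far above 6 h lie outside the times measured. The longest half-life in the authors' deposited table is 735000 h. For the line headed SETD2A the authors' deposited table gives 4.35 h for SNHG7, or 164% of its shCtrl value, while the other 5 genes are at 24.6% to 88.5% and the median gene at 70.2%. Of these other 5 genes the lowest in the authors' deposited table are SNHG16 (24.6%) and SNHG1 (31.2%). The slope differences of SNHG16 and SNHG1 between shSETD2 and shCtrl were -0.029 and -0.014 log2 per h, and neither was called. Only 11.8% of the genes in the authors' deposited table are longer in SETD2A than in shCtrl. For METTL14 the authors' deposited table gives 2.88 h for SNHG7 (108% of shCtrl) and 34.7% to 89.7% of shCtrl for the other 5, with 11.2% of all genes longer. GAS5 is at 7.38 h and 6.01 h in the 2 knockdown lines in the authors' deposited table. The sources at hand do not say how these values were scaled. By the series' design text they compare the treated time points with untreated cells of this design, so they are not independent of the counts.

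The other hosts and the TOP genes were set beside the members over the time course. At 6 h in shCtrl 36.9% of all genes tested were called higher than at 0 h and 33.2% lower. Of the 8 other noncoding hosts 3 were higher and 1 lower there (3 and 3 with library size alone). ZFAS1 went from 140 to 232 CPM and DANCR from 50.9 to 81.9 CPM as group means, while SNHG17 went from 18.7 to 5.22 CPM, a log2 change of -1.83 (SE 0.111, edgeR adjusted p = 9.25e-13). Of the 37 protein-coding hosts 30 were higher and 6 lower (median 0.77), and of the 79 ribosomal protein genes 69 were higher and 3 lower (median 0.98). All 16 other TOP genes tested were higher (median 0.85). The 9 members had a median of 0.12, and SNHG5 (0.89) and SNHG6 (0.76) alone among them reached 0.76 or more. The snoRNP proteins had 11 higher and 6 lower (median 0.50), the nonsense-mediated decay factors 9 and 7 (median 0.01) and the other decay targets 4 and 6 (median -0.06). With library size alone the median of all genes tested was -0.27. The ribosomal protein genes and protein-coding hosts then had medians of 0.63 and 0.43. Of the 16 other TOP genes 13 were then higher and 0 lower (median 0.5), and of the snoRNP proteins 9 and 6 (median 0.15). The nonsense-mediated decay factors had 2 higher and 12 lower under that scaling (median -0.34), and the other decay targets 0 and 11 (median -0.41).

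A slope difference between shSETD2 and shCtrl was called for 7.94% of all genes tested (6.45% lower, 1.49% higher). Between shMETTL14 and shCtrl the share was 5.21% (3.35% lower, 1.85% higher). For shSETD2 against shCtrl the calls were 0 of 8 other noncoding hosts, 5 of 37 protein-coding hosts and 2 of 79 ribosomal protein genes. They were 0 of 16 other TOP genes and 3 of 17 snoRNP proteins. Among the nonsense-mediated decay genes 1 of 20 factors was called there, with a lower slope, and 6 of 15 other targets, 5 of them with a lower slope and 1 with a higher one. Between shMETTL14 and shCtrl the counts were 0, 3, 0, 0 and 1 for the first 5 lists, and 5 factors (all lower) and 4 other targets (3 lower, 1 higher) were called. Of the 36 small nucleolar RNAs listed for the members' introns 1, SNORD87 inside SNHG6, has a row in the count table, with 0 counts in all libraries, so the mature small RNAs could not be set beside their hosts here.

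The genes most like the mean of the 9 expressed members over the 12 group means of log2 CPM were named by Pearson correlation. The members did not share a single course: SNHG3 and SNHG12 correlated negatively with SNHG5, SNHG6 and SNHG16 (-0.35 to -0.197). POLB, a DNA repair polymerase, came first (r = 0.973), followed by ZHX1 (0.949), C4orf29 (0.946), SLC17A2 (0.942) and CNOT11 (0.939). Closest to GAS5 alone were FGFR1OP2 (0.948), SLC17A2 (0.947), MTRR (0.941), POLB (0.937) and EPB41L5 (0.930). Of the members, each itself a part of the mean of the 9, GAS5 followed that mean most closely (0.978) and SNHG16 least (0.495). The 12 points share 3 lines and 4 times, so these values describe likeness of pattern and carry no test. Beside the overlaps with ZBTB37, RCC1, FAM69B and SNORD87 given above, GAS5 shared 42 bases with GAS5-AS1 (at most 0.651 CPM). SNHG6 shared 365 bases with MCMDC2 (at most 0.239 CPM), SNHG12 2 bases with TRNAU1AP and SNHG16 1639 bases with ST6GALNAC2 (at most 1.98 CPM). GAS5-AS1, MCMDC2, TRNAU1AP and ST6GALNAC2 all lie on the other strand, while SNHG1, SNHG5, SNHG8 and SNHG15 overlapped no listed gene.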

How the data were processed

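RNA sequencing of 24 libraries was used as gene-level count values deposited by the authors. Tools named in the submitters' processing notes are TopHat, HTSeq 0.6.1p1 and cutadapt, with the build GRCh37; no source at hand gives the annotation release or the strand setting. RPKM values stand beside the counts in the authors' deposited table, and a second deposited table holds half-lives in hours, 1 per gene and line. Replicates follow the sample titles; how cultures were separated is not given, so the p-values reflect library-to-library spread, which may be technical.

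All genes were tested in 1 edgeR 4.0.16 model (R 4.3.3; quasi-likelihood, robust, two-sided, TMM, filterByExpr, 12 groups, 12 residual degrees of freedom, Benjamini-Hochberg at 0.05); 14887 of 34618 genes passed and the biological coefficient of variation was 5.04%. Slopes are least-squares slopes of group means on hours, and 95% intervals use the standard error with 12 degrees of freedom. Adjusted p-values are from this model unless another is named. Alternatives were DESeq2 1.42.0, limma 3.58.1 on log2(RPKM + 0.1) and log2(RPKM + 1), other scalings, filters and time windows, a replicate block, and leaving out each library. The fits were checked on simulated data. The members and gene lists were chosen with earlier results of these data known. Of each other list, genes with the smallest p past the threshold were named (up to 3); ZFAS1 at 6 h, SNHG14 in shMETTL14 and the overlapping neighbours were named after their values were seen. CPM are TMM-scaled. 0 value columns were left without a sample.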

Additional observations from a re-analysis of the deposited data

Results flagged for a closer look

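The slope of SNHG7 differed between the lines in each comparison: shSETD2 minus shCtrl gave 0.200 log2 per h, shSETD2 minus shMETTL14 gave 0.118 and shMETTL14 minus shCtrl gave 0.083. The slope of SNHG16 differed between the knockdown lines, with -0.061 for shSETD2 minus shMETTL14. Each was past the threshold of edgeR's test of the slope difference itself (adjusted p = 3.07e-06, 0.00131, 0.0457 and 0.000685). The shMETTL14 minus shCtrl call of SNHG7 was lost with library size alone (adjusted p = 0.0845), with no filter on low counts, in both other time windows and in 14 of 24 fits that left out 1 library. With 2 libraries per group no single library was tested as standing apart within its group.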

How the results depend on the processing

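The 15 counts of members were within 1.5 times of their main value except as follows. The count for shSETD2 minus shCtrl went from 1 to 3 with relative log expression factors, the stricter filter (mean of at least 5 CPM) and DESeq2, the 2 added genes being GAS5 and SNHG8. That for shMETTL14 minus shCtrl went from 1 to 2 with relative log expression factors, the stricter filter, DESeq2 and the replicate block, and to 0 with library size alone, no filter, and slopes over 1 to 6 h or 0 to 3 h. The cause was not tested. Leaving out single libraries gave 3 to 5 members at 1 h in shSETD2, 1 to 3 for shSETD2 minus shCtrl, 0 to 3 for shMETTL14 minus shCtrl and 2 to 3 between the knockdown lines. The SNHG7 call for shMETTL14 minus shCtrl was lost in 14 of these 24 fits: without either 1 h library of any line, either 6 h library of shCtrl or shMETTL14, replicate 2 at 3 h of these 2 lines, or either 0 h library of shSETD2 (highest adjusted p = 0.185). At 1 h in shSETD2, SNHG7 lost its call without any one library of shSETD2 at 0 or 1 h, and SNHG1 without replicate 1 at either time.

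With library size alone and limma on log2(RPKM + 0.1) and log2(RPKM + 1), the 6 h change turned negative for SNHG1 (-0.231, -0.230 and -0.223 in shCtrl, -0.190, -0.189 and -0.183 in shSETD2, -0.364, -0.361 and -0.343 in shMETTL14) and for SNHG16 (-0.138, -0.138 and -0.135, then -0.226, -0.226 and -0.220, then -0.003, -0.004 and -0.003). SNHG8 turned in shCtrl (-0.186, -0.184 and -0.180) and in shMETTL14 (-0.154, -0.157 and -0.152). SNHG1 in shCtrl turned with the stricter filter too (-0.020), and SNHG16 in shSETD2 without its 6 h replicate 2 (-0.007; 0.14 at most without any other library). The GAS5 slope over 0 to 6 h, negative in 3 lines, was 0.072, 0.073 and 0.081 from 1 to 6 h (0.016, 0.023 and 0.018 when library size alone was used too), and in shSETD2 it was also positive with relative log expression factors and DESeq2 (0.012), the stricter filter (0.003) and without any one 0 h library of shCtrl or shMETTL14 (0.009; lowest -0.006 in the leave-one-out fits). The 6 h calls of SNHG1 and SNHG16 in shCtrl were lost in 8 and 4 of the 24 leave-one-out fits, both of them without any one 0 h library of shCtrl or shMETTL14 (lowest 0.005 for SNHG1 and 0.082 for SNHG16), and SNHG1 also without either 0 h library of shSETD2, replicate 2 at 1 h or replicate 1 at 6 h of shCtrl.

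Replicate numbers were not taken as pairs, since over 66 pairs of groups the deviations correlated between -0.197 and 0.653, with 36 but not all over 0.1. The replicate block kept SNHG7 at 0.201 log2 per h for shSETD2 minus shCtrl (adjusted p = 2.13e-07) and changed no count other than the one named by over 1.5 times. Under it the 6 h change of SNHG8 in shCtrl was called (0.161, adjusted p = 0.0418), as was the SNHG16 slope difference for shMETTL14 minus shCtrl (0.032, adjusted p = 0.0499). The GAS5 difference between the knockdown lines, 0.031, was -0.008 from 1 to 6 h. SNHG15, with at most 1 count per library, is too shallow for any comparison.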
